A study of Homo sapiens with 18 samples.

Results

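The genes described here encode the nuclear-encoded part of the mitochondrial respiratory chain. They were taken from the table of readthrough counts by gene symbol: every gene whose symbol begins with NDUF, COX and a digit, UQCR, ATP5 or SDHA to SDHD, together with CYC1 and CYCS. This gave 102 genes of the 13051 transcripts in the table, which holds 1 transcript per gene. Of these transcripts, 12704 were matched to a symbol in GENCODE release 44.

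The measurement is long-read sequencing of nascent RNA from the chromatin of K562 cells, an erythroleukemia line that carries the BCR-ABL1 kinase. A read was counted as readthrough when its 3′ end lay more than 100 nt past the annotated end of the gene, so the count rises with transcription of the gene and falls with efficient cleavage of the RNA, and these cannot be told apart in the values used here. In bulk cells, fewer cells of a type and less RNA per cell cannot be told apart either. Each of 6 groups has 3 libraries that the labels call biological replicates, so the p-values below measure the spread between such replicates.

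One set of libraries holds untreated cells (CTRL), cells exposed to 110 mM KCl for 45 min as an osmotic stress (KCl 45min), and cells given 5 µM JTE-607, an inhibitor of the cleavage nuclease CPSF73, for 1 h (JTE 1h). The other set holds untreated cells prepared alongside the imatinib samples (CTRLim) and cells given 1 µM imatinib, an inhibitor of the BCR-ABL1 kinase, for 1 h (IM 1h) or 18 h (IM 18h). The libraries held 9172 to 13611 readthrough reads in CTRL, 10202 to 20486 in CTRLim, 8422 to 22688 in KCl 45min, 14075 to 57982 in JTE 1h, 25232 to 35199 in IM 1h and 34547 to 49827 in IM 18h.

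The respiratory chain passes electrons from NADH and succinate through complexes I and II to ubiquinone, on through complex III to cytochrome c, and through complex IV to oxygen. Complexes I, III and IV pump protons, and complex V, the ATP synthase, uses the gradient to make ATP. Most subunits are encoded in the nucleus and imported, and assembly factors put them together.

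The 102 genes held 4982 of 447434 readthrough reads, or 1.11%. At least 1 read was seen for 99 of them, and 3 (ATP5MF-PTCD1, NDUFB7 and ATP5F1D) had 0 reads in all 18 libraries. The median was 29 reads per gene over the 18 libraries, beside 10 for all transcripts, and the 12 genes with the most reads held 39.6% of the reads of the group. Counts were low for single genes, which sets how finely changes can be seen: 49 of 102 genes reached 30 reads over all libraries. By role, the 17 complex V subunits held 1145 reads, the 29 accessory subunits of complex I 902, the 9 complex III subunits 879 and the 10 complex IV subunits 724. The 7 core subunits of complex I held 163 reads and the 4 subunits of complex II held 170.

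The ends of these genes are shown because every count begins there. The poly(A) signal AATAAA occurred in the last 50 nt of 59 of the 102 transcripts (57.8%), beside 60.4% of the 12704 matched transcripts, and ATTAAA without it in 13.7%, beside 14.03%. The last 30 bases of 6 transcripts are given 5′ to 3′ on the strand of the gene, from the GRCh38 genome, with AATAAA in capitals where it occurs. The positions are chr22:29770384-29770413 on the plus strand for UQCR10, chr19:29205320-29205349 on the minus strand for UQCRFS1, chr20:59025475-59025504 on the minus strand for ATP5F1E, chr12:56638175-56638204 on the minus strand for ATP5F1B, chr2:97648354-97648383 on the plus strand for COX5B and chr7:25118656-25118685 on the minus strand for CYCS.
UQCR10: cataatgttttAATAAAgttgaagaatttg
UQCRFS1: ttctcacagtactaaatttcattttctgta
ATP5F1E: ctcttcagaAATAAAgatcagaagactgca
ATP5F1B: ggtttccAATAAAatgtacacccctcagaa
COX5B: taatgcaatgaatgggaccacctggtatga
CYCS: tgtgtatcAATAAAcagcccgtggacccaa

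UQCR10, ATP5F1E, ATP5F1B and CYCS carry the signal in this window, and UQCRFS1 and COX5B carry neither hexamer in their last 50 nt. Last exons were short, with a median of 414.5 nt beside 1361 nt for all matched transcripts. The counting boundary lay inside another protein-coding gene on the same strand for 20 of 102 genes (19.6%, beside 8.10% of all), and inside a protein-coding gene on the opposite strand for 18 (17.6%, beside 17.0%). Whether strand was used when reads were assigned to genes is not given in the sources used here, so reads of overlapping genes on opposite strands cannot be told apart for sure. Among genes named below this touches ATP5F1E, whose end lies within TUBB1, and NDUFB9 within MTSS1. For NDUFB8, SDHA and SDHAF2, also named below, the boundary lay inside a gene on the same strand, so strand cannot separate the reads.

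Promoters of 82 of the genes were matched in RefSeq on GRCh38. The NRF1 motif, the letters GCGCA, any base, then GCGC, searched on both strands of 300 bases around the start, occurred in 21 of 82 (25.6%), beside 6.29% of 27305 promoters and 11.6% of the 10118 promoters of genes in the table. The ETS motif CCGGAAGT occurred in 14 of 82 (17.1%), beside 4.43% and 8.84%. A match is a description of these letters only.

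The label K562 was checked against erythroid markers. The fetal and embryonic globin genes HBG1 and HBE1 led a list of 9 markers, 8 of which were in the table, with 4159 and 2768 reads. Of 12 markers of T cells, B cells, monocytes and fibroblasts, 7 were in the table and together held 27 reads, of which CD3D had 13 and CD68 had 11, while CD3G and COL1A2 were at 0.

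Levels are given as readthrough reads per 1000000 library reads (RPM). Summed over the respiratory chain genes, the level was 480, 402 and 464 in the CTRL libraries and 496, 406 and 416 in the CTRLim libraries. It was 514, 515 and 552 in IM 1h and 305, 338 and 321 in IM 18h. It was 207, 233 and 179 in KCl 45min and 461, 815 and 673 in JTE 1h. The IM 18h libraries all lay below those of CTRLim and IM 1h, the IM 1h libraries above those of CTRLim, and the KCl 45min libraries below those of CTRL, while JTE 1h overlapped CTRL through its first replicate. As a share of all readthrough reads the genes held 1.32% ± 0.114 (SD, n = 3) in CTRL, 0.847% ± 0.0174 in KCl 45min, 1.45% ± 0.102 in JTE 1h, 1.09% ± 0.0247 in CTRLim, 1.20% ± 0.0501 in IM 1h and 0.868% ± 0.0371 in IM 18h.

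**Figure D1:**
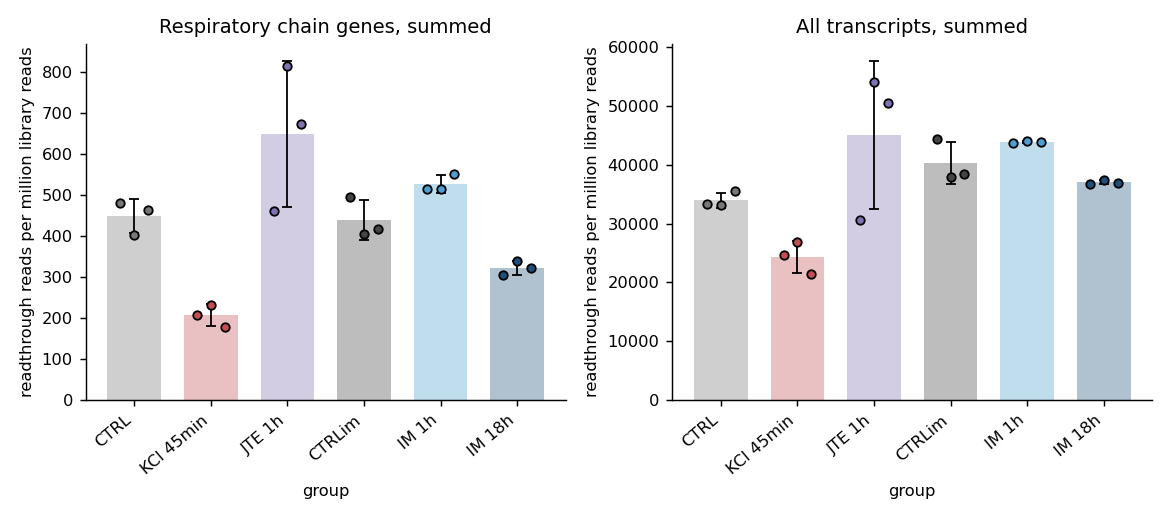
Summed RPM of the respiratory chain genes (left) and of all transcripts (right) in each group. Points are libraries, bars are means and whiskers are SD (n = 3); the respiratory chain genes averaged 206 in KCl 45min beside 449 in CTRL, and 321 in IM 18h beside 527 in IM 1h.

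Imatinib for 18 h was set beside imatinib for 1 h, which is also the difference between the effects at both times, since they share the CTRLim libraries. UQCR10, a small subunit of complex III, was at 17.8, 36.6 and 26.2 RPM in IM 1h and at 8.51, 7.05 and 8.89 in IM 18h. UQCRFS1, the Rieske iron-sulfur subunit of complex III, was at 20.8, 22.7 and 21.2 in IM 1h and at 7.45, 7.83 and 8.89 in IM 18h. In both genes every IM 18h library lay below every IM 1h library. UQCR10 fell with a log2 fold change of -1.69 ± 0.363 (SE; adjusted p = 0.000223 by edgeR), and UQCRFS1 with -1.39 ± 0.372 (adjusted p = 0.00364).

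ATP5F1E, the epsilon subunit of ATP synthase, was at 28.2, 40.1 and 41.1 in IM 1h and at 20.2, 9.39 and 20.8 in IM 18h, without overlap, and fell by 1.13 on the log2 scale (SE 0.302, adjusted p = 0.00363). NDUFAF3, an assembly factor of complex I, was at 11.9, 15.7 and 16.2 and then at 4.26, 9.39 and 2.96, without overlap, and fell by 1.36 (SE 0.441, adjusted p = 0.0195). COX5B, a subunit of complex IV, was at 13.4, 17.4 and 18.7 and then at 8.51, 10.2 and 3.71, without overlap, and fell by 1.17 (SE 0.407, adjusted p = 0.0319). CYC1, the heme-bearing cytochrome c1 of complex III, was at 22.3, 36.6 and 18.7 and then at 10.6, 18.8 and 8.89, where the second IM 18h library reached the range of IM 1h, and fell by 0.96 (SE 0.346, adjusted p = 0.0386).

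These were 6 of 25 genes tested, all lower, beside 14.13% of the 1720 transcripts tested that were called lower and 4.186% called higher. The other 77 of the 102 genes had fewer than 30 reads in the 6 libraries and were not tested. The median log2 fold change was -0.59 for the 25 genes and -0.30 for all transcripts tested, with 22 of the 25 below 0, beside 64.4% of all. Libraries did not overlap for 12 genes that were lower (26.34% of all transcripts) and for 1 that was higher (8.488%), NDUFB8, an accessory subunit of complex I, with a log2 fold change of 0.76 (adjusted p = 0.376). NDUFA8, another accessory subunit, was at 0.20 (adjusted p = 0.783).

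The count depends on scaling. Here reads were taken per library read. With TMM scaling the median of all transcripts moved by 0.29, from -0.30 to -0.01, 2 of the genes were called, and the split over all transcripts moved from 72 higher and 243 lower to 111 higher and 92 lower. Across the alternatives UQCR10 was called in 14 of 14, with adjusted p from 0.000114 to 0.0206, and UQCRFS1 in 13 of 14, while ATP5F1E was called in 9, NDUFAF3 in 5, COX5B in 4 and CYC1 in 2 of 14. The 6 calls became 3 without IM 1h replicate 2, 2 without IM 1h replicate 3 and 3 without IM 18h replicate 3. DESeq2 called 2.

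By role, the complex III subunits summed to 113 ± 18.1 RPM (SD, n = 3) with imatinib for 1 h and 46.6 ± 6.44 for 18 h, a log2 ratio of -1.28 that was -0.98 with TMM scaling. The log2 ratio was -0.61 for complex V subunits, -0.61 for complex IV subunits and -0.54 for accessory subunits of complex I, and in each the IM 18h libraries lay below those of IM 1h. With TMM scaling these were -0.31, -0.31 and -0.24. Complex II subunits were at -0.79, also without overlap, and -0.49 with TMM scaling. Core subunits of complex I were at -0.49, assembly factors of complex IV at -0.51 and CYCS at -0.63, each with overlap. For assembly factors of complex I, led by NDUFAF3, it was -1.20, also without overlap, and -0.91 with TMM scaling. For assembly factors of complex II, led by SDHAF2, it was -0.23 and changed sign with TMM scaling, to 0.07. No test was made of these sums.

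**Figure D2:**
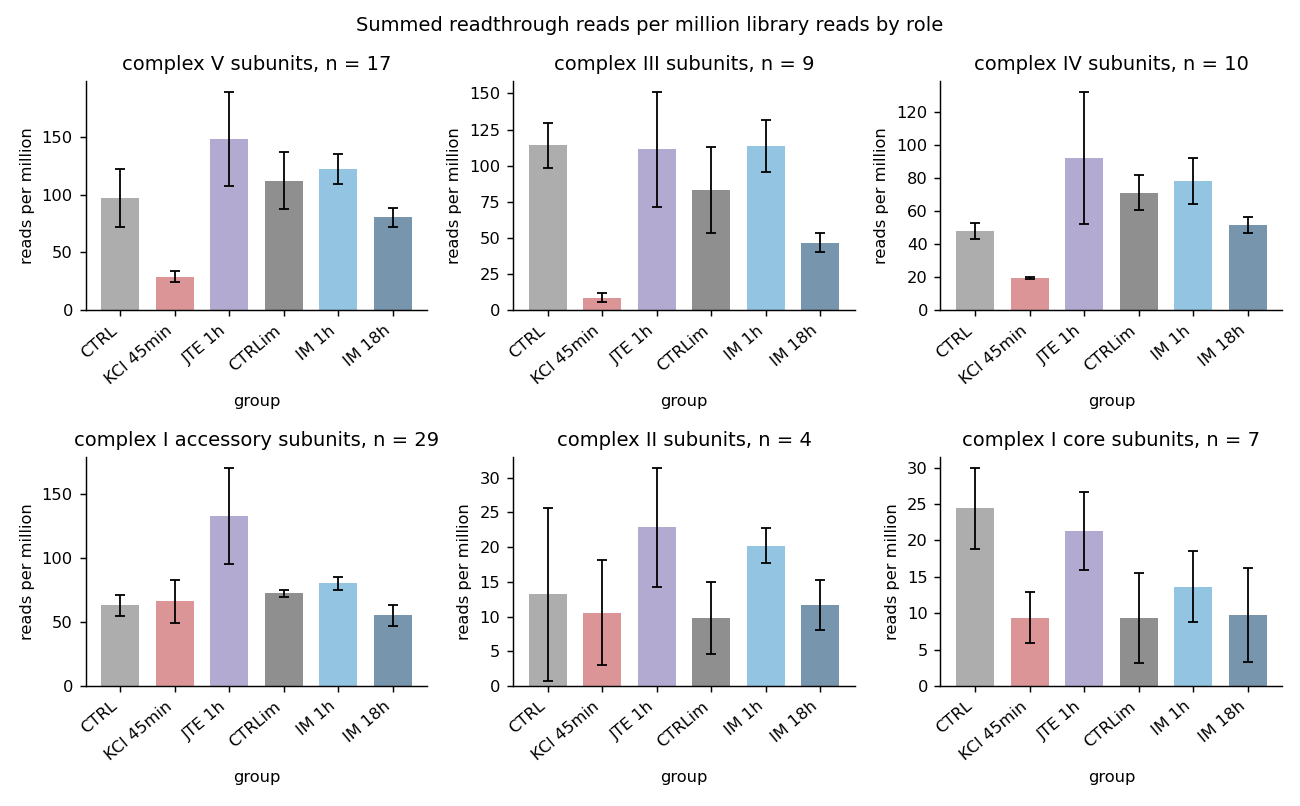
Summed RPM of the subunits of each complex, as group means with SD (n = 3); complex I is split into core and accessory subunits. In RPM, complex III subunits averaged 8.71 in KCl 45min beside 114 in CTRL, core subunits of complex I 9.39 beside 24.4, and accessory subunits of complex I 65.9 beside 62.9, or 46.9 beside 59.7 without NDUFB9, a direction that turned with TMM scaling.

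In the same libraries HBG1, HBE1 and TAL1 of the K562 marker list were called higher in IM 18h against IM 1h. HBG1 averaged 328 ± 22.6 RPM (SD, n = 3) with imatinib for 1 h and 681 ± 33.2 for 18 h (adjusted p = 2.44e-17). HBE1 averaged 320 ± 10.3 and 445 ± 18.0 (adjusted p = 0.000189), and TAL1, an erythroid transcription factor, 24.6 ± 5.29 and 56.8 ± 4.65 (adjusted p = 0.0000936). The part of this shift in the lower values of the respiratory chain genes was not tested.

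Imatinib for 18 h against the untreated cells of its own set gave 3 of 21 genes called lower (8.947% of 1386 transcripts) and 0 called higher (5.195%). ATP5F1B, the catalytic beta subunit of ATP synthase, was at 13.1, 13.0 and 30.5 RPM in CTRLim and at 6.38, 5.48 and 7.41 in IM 18h, without overlap. It fell by 1.59 (SE 0.454, adjusted p = 0.0119). NDUFAF3, at 26.1, 16.7 and 10.2 in CTRLim, fell by 1.49 (SE 0.517, adjusted p = 0.0430). ATP5F1E, at 34.8, 20.4 and 52.8 in CTRLim, fell by 1.10 (SE 0.380, adjusted p = 0.0416), with 1 IM 18h library, replicate 3, above the lowest CTRLim library. DESeq2 called 0 of the 21 genes, and at an unadjusted p under 0.05 edgeR gave 4. The 3 calls became 1 without CTRLim replicate 1, 1 without CTRLim replicate 3 and 1 without IM 18h replicate 2. With TMM scaling and with median-of-ratios size factors ATP5F1B was the single gene still called; over the alternatives it was called in 12 of 15, ATP5F1E in 5 of 15 and NDUFAF3 in 4 of 14. With TMM scaling the median of all transcripts moved by 0.11, and with median-of-ratios size factors the split over all transcripts moved from 72 higher and 124 lower to 103 higher and 108 lower.

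The median log2 fold change was -0.40 for the 21 genes and -0.01 for all transcripts tested. Libraries did not overlap for 6 lower genes (18.4% of all) and for 0 higher ones (13.28%). The highest values were those of ATP5MC3, a c-ring subunit of ATP synthase, at 0.67 (adjusted p = 0.329) and NDUFA8 at 0.42 (adjusted p = 0.651).

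Imatinib for 1 h against CTRLim gave 0 of 19 genes called by edgeR's quasi-likelihood test, beside 0.2024% of 988 transcripts called higher and 1.316% called lower, and 0 by DESeq2. At an unadjusted p under 0.05 there were 2. ATP5MC3 was at 17.4, 18.5 and 6.09 RPM in CTRLim and at 31.2, 17.4 and 32.4 in IM 1h, with overlap, at a log2 fold change of 1.03 (SE 0.398, adjusted p = 0.212). ATP5F1B was at 11.9, 5.23 and 11.2 in IM 1h, below all of CTRLim, at -1.004 (SE 0.448, adjusted p = 0.277). SDHA, the flavoprotein of complex II, was at 0.98 (adjusted p = 0.441) and COX7A2, a subunit of complex IV, at -0.31 (adjusted p = 0.816).

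Of the 19 genes, 15 had a log2 fold change above 0, beside 64.0% of all transcripts, and the median was 0.29 beside 0.19. Libraries did not overlap for 3 higher genes (12.96% of all) and 1 lower gene (5.466%). With TMM scaling the median of all transcripts moved by -0.18, to 0.00, and that of the genes was 0.11, and the calls over all transcripts were 0 higher and 17 lower, beside 2 and 13.

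**Figure D3:**
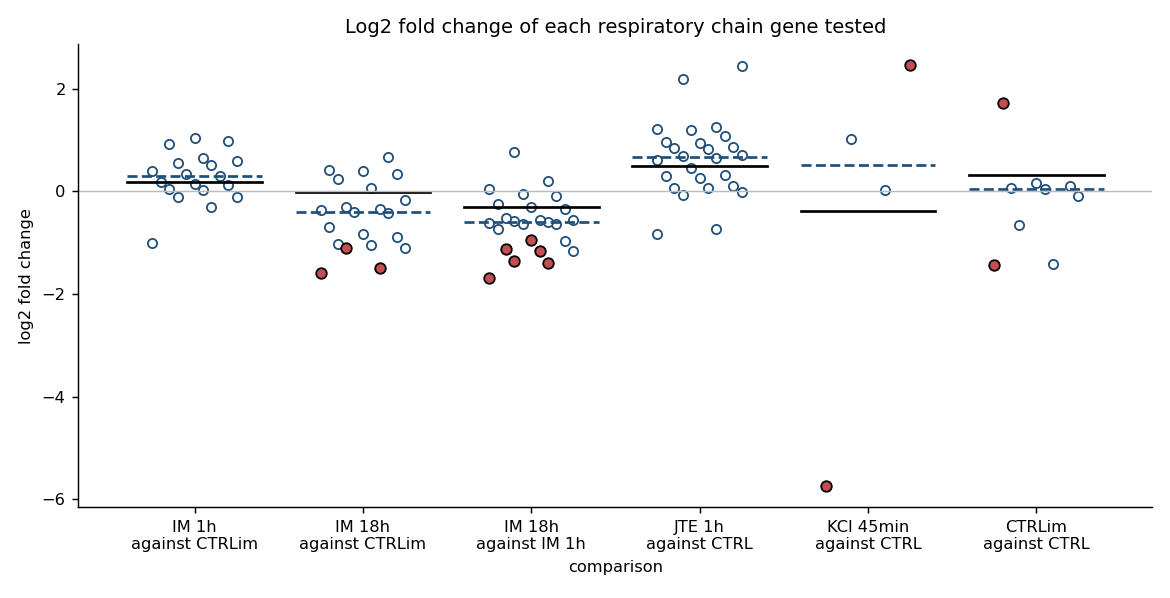
Log2 fold change of each respiratory chain gene tested in each comparison. Filled points were called at an adjusted p under 0.05, open points were not; dashed lines are medians of these genes and solid lines medians of all transcripts tested, -0.59 and -0.30 for IM 18h against IM 1h.

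KCl for 45 min gave the largest log2 fold change among genes with at least 30 reads, that of CYC1 at -5.75. CYC1 was at 49.9, 41.4 and 38.7 RPM in CTRL and at 0, 0 and 0.947 in KCl 45min, from 45 reads and 1 read. Per library read this is 77.8-fold lower, with a 95% exact interval of 13.3 to 3140 that covers counting error only, and the adjusted p was 5.14e-07. NDUFB9, an accessory subunit of complex I, went the other way, at 5.54, 0 and 3.87 in CTRL and 17.1, 28.7 and 11.4 in KCl 45min, without overlap. It rose by a log2 fold change of 2.46 (SE 0.858, adjusted p = 0.0268). Its transcript is annotated as a target of nonsense-mediated decay and its end lies inside MTSS1 on the opposite strand, so the source of these reads cannot be told apart.

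Only 4 genes reached 30 reads over these 6 libraries, and both called genes were among them, 1 lower (20.9% of 378 transcripts) and 1 higher (4.233%). Libraries did not overlap for the same numbers, 1 lower (28.04%) and 1 higher (7.672%). CYCS, cytochrome c itself, was at 27.7, 7.31 and 15.5 in CTRL and at 14.6, 15.9 and 19.0 in KCl 45min, with overlap, at 0.02 (adjusted p = 0.984), and NDUFB8 was at 1.02 (adjusted p = 0.326). The 2 calls became 0 without CTRL replicate 1, 0 without CTRL replicate 2, and 1 without KCl 45min replicate 1, replicate 2 or replicate 3, as CYC1 or NDUFB9 then had fewer than 30 reads, except that without CTRL replicate 2 NDUFB9 was tested and had an adjusted p of 0.241, in a range over alternatives of 0.00486 to 0.241. With TMM scaling the median of all transcripts moved by 0.45, from -0.39 to 0.06, and the calls over all transcripts were 25 higher and 50 lower, beside 16 and 79.

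At the minimum of 30 reads the median log2 fold change of the 4 genes was 0.52, with 3 above 0, beside -0.39 for all transcripts, of which 37.6% were above 0. With a minimum of 10 reads over both groups together, where most counts are small, 28 genes were tested and 8 were called lower (11.83% of 1885 transcripts) and 1 higher (1.751%). The complex III subunits called lower were CYC1, UQCRQ (2 reads in KCl 45min and 23 in CTRL, 19.9-fold lower per library read, interval 4.91 to 174), UQCR10 (2 and 18 reads, 15.6-fold lower, interval 3.73 to 138) and UQCRFS1. UQCRC1, also tested and named after its value was seen, was at -1.56 and was not called, with adjusted p from 0.278 to 0.626 over the alternatives. The remaining complex III subunits had fewer than 10 reads and were not tested. UQCRFS1 had 0 reads in KCl 45min and 15 in CTRL, which is at least 8.64-fold lower against a floor of 3 reads over the group. ATP5F1B, NDUFAF3, ATP5MC3 and COX5B were the others called lower. All 8 genes called lower had at least 10 reads in CTRL alone. They thus passed the minimum through the group where they were high, and their number is a description only. Over the 4 alternatives that tested them, adjusted p ran from 0.000118 to 0.00363 for UQCRQ, from 0.00138 to 0.0166 for UQCR10, from 0.000130 to 0.00229 for UQCRFS1, from 0.00254 to 0.0276 for ATP5F1B, from 0.00420 to 0.0875 for NDUFAF3, from 0.0104 to 0.127 for ATP5MC3 and from 0.00308 to 0.121 for COX5B. These were a minimum of 10 reads, no minimum, all 6 untreated libraries and all 18 libraries in one fit, each by edgeR per library read. Other scalings and DESeq2 were run only at the minimum of 30 reads, so dependence of these genes on them was not tested. The median log2 fold change of the 28 genes was -0.99, unchanged with UQCRFS1 at its bound, beside -0.41 for all transcripts, and 21 of 28 were below 0, beside 63.0%.

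The complex III subunits summed to 114 ± 15.6 RPM in CTRL and 8.71 ± 3.06 in KCl 45min, complex V subunits to 97.0 ± 25.4 and 29.1 ± 4.66, and complex IV subunits to 48.1 ± 4.86 and 19.5 ± 0.388 (SD, n = 3), in each without overlap. Core subunits of complex I summed to 24.4 ± 5.60 and 9.39 ± 3.54, a log2 ratio of -1.38, also without overlap. Accessory subunits of complex I summed to 62.9 ± 7.99 and 65.9 ± 16.7, with overlap. The log2 ratio of the accessory subunits was 0.07, beside -3.71 for complex III, -1.74 for complex V and -1.30 for complex IV. None of these changed sign with scaling. Complex II subunits were at -0.33, with overlap, and changed sign with TMM scaling, to 0.02. Assembly factors of complex IV were at -0.16, also with overlap, and turned to 0.23 with TMM scaling. For assembly factors of complexes I and II the ratios were -1.14 and -0.55, both with overlap. The direction of the accessory subunits depends on single genes, by an alternative chosen after seeing the data. Without NDUFB9, whose source of reads cannot be told apart, they summed to 59.7 ± 6.29 and 46.9 ± 9.49, a log2 ratio of -0.35 without overlap that turned to 0.04 with TMM scaling. The ratio was -0.19 without NDUFB8 and -0.05 without NDUFA10, an accessory subunit named after its value was seen, both with overlap and both turning with TMM scaling, to 0.17 and 0.32. In the same libraries the K562 markers HBG1 and HBE1 were also called lower in KCl 45min, at -1.46 (adjusted p = 0.0311) and -2.61 (adjusted p = 0.000231). TAL1, also tested, was at -0.71 (adjusted p = 0.401) and not called, and TFRC, with too few reads to be tested, had 1 read in CTRL and 22 in KCl 45min. The part of these markers in the lower values above was not tested.

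**Figure D4:**
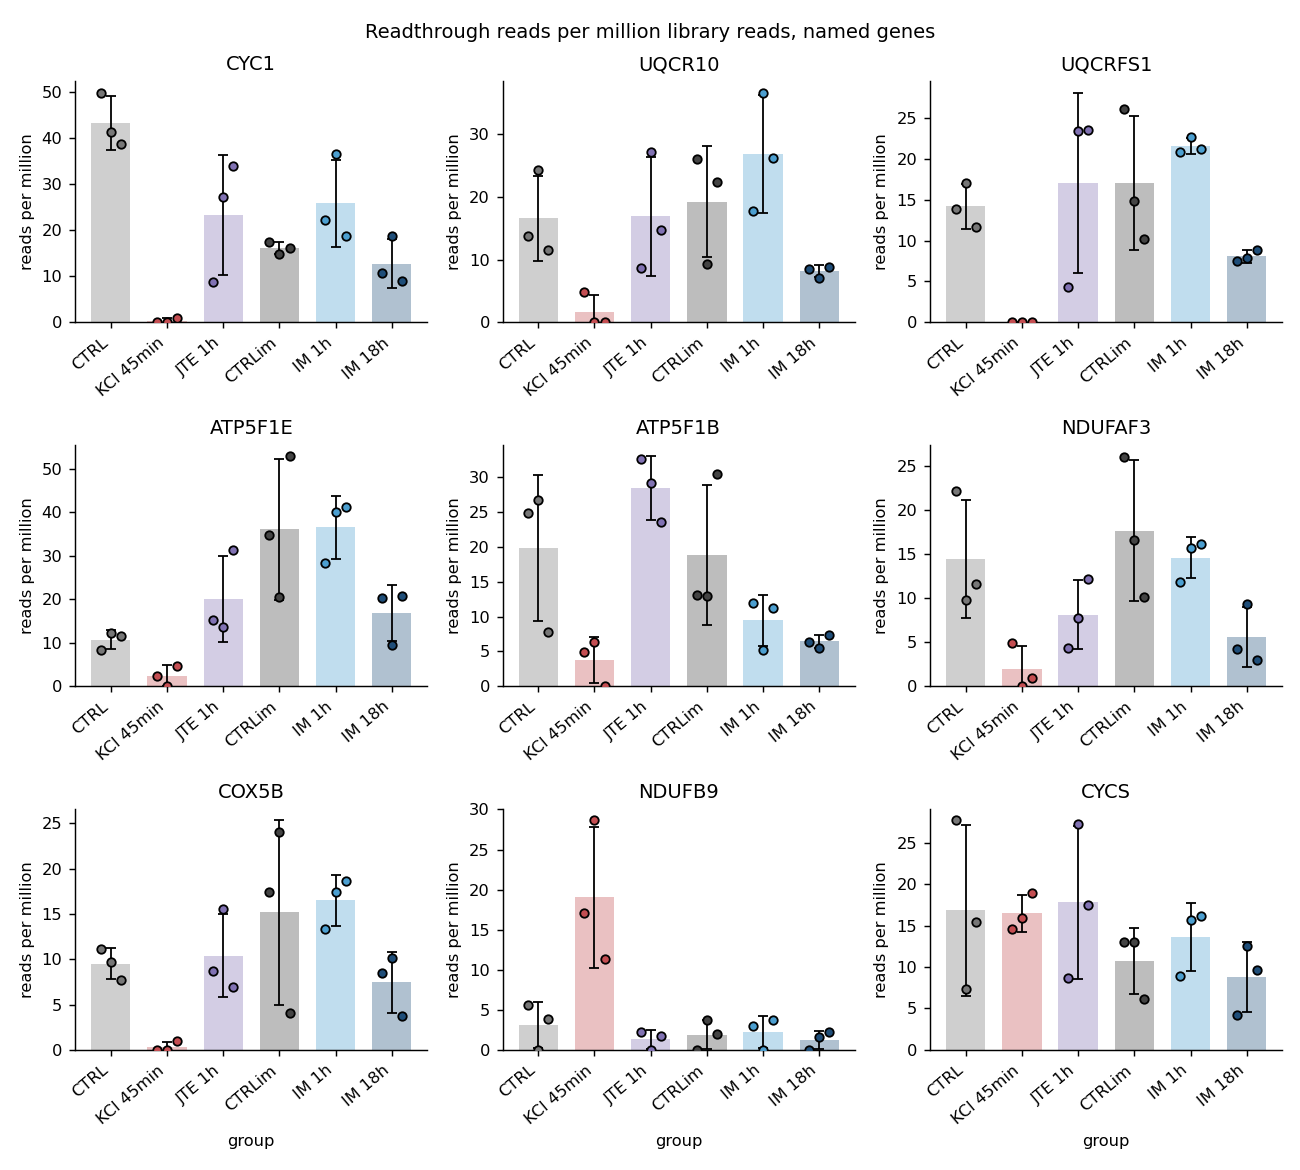
RPM of 9 named genes in each group; points are libraries, bars are means and whiskers are SD (n = 3). CYC1 averaged 43.3 in CTRL and 0.316 in KCl 45min, while CYCS averaged 16.8 and 16.5, a direction that turned with TMM scaling.

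The KCl and imatinib time comparisons share no library. Of the 8 genes called lower in KCl 45min with a minimum of 10 reads, 5 (62.5%) were also called lower in IM 18h against IM 1h, and these were 5 of 6 (83.3%) of that list: CYC1, UQCR10, UQCRFS1, NDUFAF3 and COX5B. This sharing depends on the settings, as CYC1 alone was called lower in KCl 45min with a minimum of 30 reads, and UQCR10 and UQCRFS1 alone were called in IM 18h against IM 1h with TMM scaling. Over all 1166 transcripts tested in both, 66 were called lower in both, 34.02% of the KCl list and 31.7% of the imatinib list. The 8 respiratory chain genes of the KCl list passed the minimum of 10 reads through CTRL, where they were high. Whether the shares differ was not tested.

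JTE-607 for 1 h gave 0 of 26 genes called by edgeR's quasi-likelihood test (0.1032% of 969 transcripts called higher and 0.0% lower) and 0 by DESeq2, with 2 at an unadjusted p under 0.05. COX7A2 was at 2.77, 2.44 and 7.73 RPM in CTRL and 13.1, 27.2 and 26.1 in JTE 1h, without overlap, at 2.44 (SE 0.758, adjusted p = 0.226). NDUFB4, an accessory subunit of complex I, had 3, 2 and 0 reads in CTRL and 6, 18 and 23 in JTE 1h, or 4.40 ± 4.18 and 22.7 ± 11.2 RPM (SD, n = 3), without overlap, at 2.19 (SE 0.759, adjusted p = 0.226). JTE 1h replicate 1 had the fewest reads of its group and, by the median length the study lists, the shortest. Without it both genes were called, with adjusted p of 0.0215 and 0.0383 over ranges of 0.0215 to 0.789 and 0.0383 to 0.789 among the alternatives. Calls over all transcripts then went from 1 of 969 to 69 of 840, of which 67 were higher.

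The lowest values were those of CYC1 at -0.84 (adjusted p = 0.601) and NDUFAF3 at -0.73 (adjusted p = 0.733). The median was 0.67 for the 26 genes and 0.49 for all transcripts, and 0.22 and 0.04 with TMM scaling, which moved the latter by -0.45. Libraries did not overlap for 5 higher genes (11.97% of all) and 1 lower gene (1.858%), CYC1.

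The untreated groups of both sets were compared to show what differs without a treatment. The K562 marker HBE1 averaged 69.9 ± 20.4 RPM in CTRL and 259 ± 81.3 in CTRLim (SD, n = 3) and was called higher, at 1.84 (adjusted p = 0.00427). The markers HBG1 and TAL1, also tested, were at 0.19 (adjusted p = 0.760) and 0.27 (adjusted p = 0.680) and not called. Of 9 respiratory chain genes tested, ATP5F1E was higher in CTRLim (10.17% of 472 transcripts called higher) and CYC1 lower (0.4237% called lower). ATP5F1E was at 8.32, 12.2 and 11.6 RPM in CTRL and rose by a log2 fold change of 1.72 (SE 0.499, adjusted p = 0.0348), a call held in 4 of 14 alternatives and lost with each of the 3 other scalings. CYC1, at 17.4, 14.8 and 16.3 in CTRLim, was lower by a log2 fold change of -1.44 (SE 0.380, adjusted p = 0.0210), held in 8 of 14. UQCRQ was at -1.41 (adjusted p = 0.113) and NDUFAF3 at 0.16 (adjusted p = 0.904), the latter changing sign with TMM scaling. With TMM scaling the calls over all transcripts were 23 higher and 24 lower, beside 48 and 2, the median of all transcripts moved by -0.38, and the median of the 9 genes turned from 0.05 to -0.34. The 2 calls became 0 without CTRL replicate 1, 0 without CTRLim replicate 3, and 1 without CTRL replicate 2, CTRLim replicate 1 or CTRLim replicate 2. DESeq2 called 0, and 3 genes had an unadjusted p under 0.05 by edgeR.

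Lists of related genes gave few calls. Of 39 further assembly factors, 6 were tested in IM 18h against IM 1h and 1 was called, DMAC1, lower at -1.36 (adjusted p = 0.0100), beside 14.13% of all transcripts called lower. DMAC1 was also called lower in IM 18h against CTRLim, at -1.43 (adjusted p = 0.0248), 1 of 5 tested, beside 8.947%. Of 18 genes of the citric acid cycle and pyruvate dehydrogenase, 4 were tested and 1, citrate synthase CS, was called lower at -1.14 (adjusted p = 0.0459), beside the same 14.13%. Of 13 regulators of mitochondrial biogenesis, TFB1M was called higher in IM 18h against CTRLim at 1.41 (adjusted p = 0.0287), the single gene of that list tested there, beside 5.195% of all transcripts called higher.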

How the data were processed

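Deposited values are raw counts: per the labels and the study's methods, the authors trimmed and mapped long reads, collapsed molecular identifiers, removed polyadenylated reads and counted readthrough reads per gene, so each read stands for 1 molecule and counts were not divided by length. Intervals cover counting error only. Library size was the filtered read total the study lists. Raw counts were fitted with edgeR 4.0.16 (glmQLFit, glmQLFTest) in R 4.3.3 for transcripts with at least 30 reads over the 6 libraries of a comparison, with Benjamini-Hochberg adjustment over all transcripts tested, called under 0.05. The alternative tool was DESeq2 1.42.0. Named genes were the called genes, the 2 highest and 2 lowest fold changes per comparison, the 12 most abundant, the leading gene of each role, CYC1 and CYCS. Which of them to describe at the lower minimum of reads, or to show by sequence, was decided after values were seen. The genes and lists were chosen with earlier results of these data known.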

Additional observations from a re-analysis of the deposited data

Results flagged for a closer look

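The effect of imatinib at 18 h differed from that at 1 h, by a test of the difference itself, for 6 of 25 respiratory chain genes tested, all lower, beside 14.13% of all transcripts called lower. The log2 fold changes of IM 18h against IM 1h were -1.69 for UQCR10, -1.13 for ATP5F1E, -1.39 for UQCRFS1, -1.36 for NDUFAF3, -1.17 for COX5B and -0.96 for CYC1. Of 14 alternatives these were called in 14, 9, 13, 5, 4 and 2 in the same order. With 3 libraries a group, single libraries were not tested for standing apart.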

How the results depend on the processing

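Calls of single genes were few and moved with the processing, and unless said otherwise the cause was not tested. For IM 18h against CTRLim, 3 genes were called, 1 with TMM scaling, median-of-ratios size factors, no minimum of reads or all 6 untreated libraries, 0 with DESeq2 or all 18 libraries in one fit, and 1 to 3 when each library was left out in turn. For IM 18h against IM 1h, 6 were called, 2 with TMM scaling, median-of-ratios size factors or DESeq2, 3 with total readthrough reads as library size or no minimum, 1 with all 18 libraries in one fit, and 2 to 6 without single libraries. For JTE 1h, 0 were called and 0 to 2 without single libraries. For KCl 45min, 2 of 4 genes tested were called (95 of 378 transcripts), 1 of 4 with DESeq2 (62 of 378), 9 of 28 with a minimum of 10 reads (256 of 1885), 5 of 86 with no minimum (112 of 9247), 10 of 16 with all 6 untreated libraries (274 of 791), 9 of 49 with all 18 libraries in one fit (347 of 3480), and 0 to 2 without single libraries, where CYC1 fell under the minimum of 30 reads without CTRL replicate 1 or 2. For CTRLim against CTRL, 2 were called, 1 with TMM scaling, total readthrough reads or median-of-ratios size factors, 0 with DESeq2, no minimum or all 18 libraries, and 0 to 2 without single libraries. IM 1h gave 0 under every alternative run.

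The log2 ratio of summed levels for IM 18h against CTRLim was -0.45, and -0.26 with median-of-ratios size factors. For IM 18h against IM 1h it was -0.71, and -0.42 with TMM scaling, -0.47 with total readthrough reads, -0.41 with median-of-ratios size factors and -0.63 per mapped read. For KCl 45min it was -1.12, and -0.72, -0.64 and -0.76 in the same order of scalings. For CTRLim against CTRL it was -0.03, and -0.46, -0.28 and -0.42, with -0.13 to 0.02 without single libraries. For JTE 1h it was 0.53, and 0.10 with TMM scaling. The summed accessory subunits of complex I in KCl 45min were at 0.07, and at -0.35 without NDUFB9, which was chosen after seeing the data. Of 389 values of named genes under alternatives, 298 kept direction and side of the threshold, 79 lost the call, 2 gained it and 10 uncalled values changed sign. With the replicate block the counts of called genes were 0, 3, 6, 0, 2 and 2 in the order IM 1h, IM 18h against CTRLim and against IM 1h, JTE 1h, KCl 45min and CTRLim, as without it. Correlations of the deviations of same-numbered libraries ran from -0.0398 to 0.144 and were over 0.1 in all 3 pairs of no comparison, although all 3 were above 0 in some.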
